A study of Solanum lycopersicum with 12 samples.

Results

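The response described here is that of tomato plants to amdS6, a transformant of the biocontrol fungus Trichoderma harzianum that carries 1 copy of the acetamidase gene amdS of Aspergillus nidulans. It was read by setting the 3 arrays of plants from amdS6-coated seeds against the 3 arrays of plants from untreated seeds, 6 of the 12 arrays of the study, over 10038 tomato probe sets. The other 6 arrays are of plants from seeds coated with the wild type T34, from which amdS6 was made, or with amdS122, a transformant with 2 copies of amdS. The study asked how the acetamidase of the fungus bears on its host. All plants were of the cultivar Marmande and 3 weeks old, their aerial parts were taken (leaves in the labels), and each array carries RNA of 5 pooled plants. Coated seeds received spores at 20000000 per ml according to the labels. The methods give a higher concentration, and which was used is not known here. In both transformants amdS is driven by the gpdA promoter of A. nidulans and ended by a cbh2 terminator, and each transformant is a single monosporic isolate, so that the effect of amdS and that of the clone cannot be told apart. Control seeds received no fungus, so that amdS6 against control holds the effect of the fungus as well as that of the transgene. T34 against control is the same comparison for the fungus without amdS.

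Trichoderma strains live on and in roots, and plants perceive them through receptors for fungal molecules, calcium signals, MAP kinase cascades and a burst of reactive oxygen. Downstream lie transcription factors of the WRKY, NAC and ethylene response factor (ERF) families and, as the slower output, pathogenesis-related (PR) proteins such as chitinases and glucanases that attack fungal walls. A root-colonizing fungus can also alter jasmonate-linked and wound proteins in the shoot, and an acetamidase releases ammonium, a nitrogen source that plants assimilate with carbon skeletons supplied in part by phosphoenolpyruvate carboxylase (PEPC).

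Values are log2 signals, so that a difference of 1 is a 2-fold change. A probe set was called when its limma adjusted p was under 0.1 and its change at least 2-fold. Signals ran from 3.31 to 14.74 and array medians from 7.798 to 7.868. The leaf label was borne out by 3 light-harvesting markers, whose mean signals lay at the 99.7th to 99.9th percentile of the array and whose summed linear level was 54500 to 55300 in control plants and 55000 to 56600 with amdS6. Summed levels of 7 meristem markers (1580 to 1690 in control, 1630 to 1660 with amdS6) and of 11 flower and fruit markers (816 to 867, 784 to 816) overlapped or touched, whereas 5 root markers were lower with amdS6 (2680 to 3080 against 3440 to 3630). The mean excess of the 3' over the 5' signal of actin, ef1a and gapdh, a measure of transcript completeness, was 3.17 ± 0.055 in control plants and 2.89 ± 0.069 with amdS6 (SD, n = 3), with no overlap between the arrays. With this value as a covariate 187 probe sets were called in the comparison with control, 157 of them among the 168 called without it, although the groups do not overlap in it. Of the root markers 4 of 5 were lower at the adjusted p, against 20.9% of all probe sets. Their median was -0.302. With each array scaled on its hybridisation spikes it was 0.0537, and 1 root marker was lower and 1 higher. The part of the root markers in the results was not tested.

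Plants treated with amdS6 differed from control plants mostly by transcripts that were lower, and the falls were deeper than the rises. Of the 10038 probe sets, 134 were called lower (1.33%) and 34 higher (0.339%). The 3 amdS6 arrays lay entirely on the same side of the 3 control arrays for all 168, as they did for 53.1% of all probe sets, so that lack of overlap does not set the called probe sets apart. Median fold size was 2.98 among those lower and 2.24 among those higher. At 3-fold there were 67 lower and 4 higher probe sets, at 4-fold 37 and 0, and at 8-fold 7 and 0. Small changes had the opposite balance: past the adjusted p with no limit on fold, 2911 probe sets were higher (29%) and 2101 lower (20.9%), with a median size of 0.267 on the log2 scale (2913 and 2101 at an unadjusted p under 0.05). The median difference of all probe sets was 0.0146. After scaling each array on its 9 hybridisation spikes it was 0.37, 164 probe sets were called higher and 93 lower, and 7176 were higher and 285 lower past the adjusted p. Of those 93, all were among the 134, and the 34 higher were all among the 164. The spikes did not differ evenly, from -0.605 for BioB-5 to -0.0876 for CreX-3 (amdS6 minus control). The spike mean ran from 10.3 to 10.75 on the control arrays and from 10.03 to 10.26 with amdS6. A single shift per array is thus a rough scale. The smallest two-sided p of an exact permutation test on 3 and 3 arrays is 0.1, so that the calls rest on the variance that limma pools across probe sets. The labels call the 3 pools of a group biological replicates. The methods name separate plant assays for the pools used in real-time PCR but not for those on the arrays, so that the p-values measure the spread between pools, whatever their origin.

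**Figure D1:**
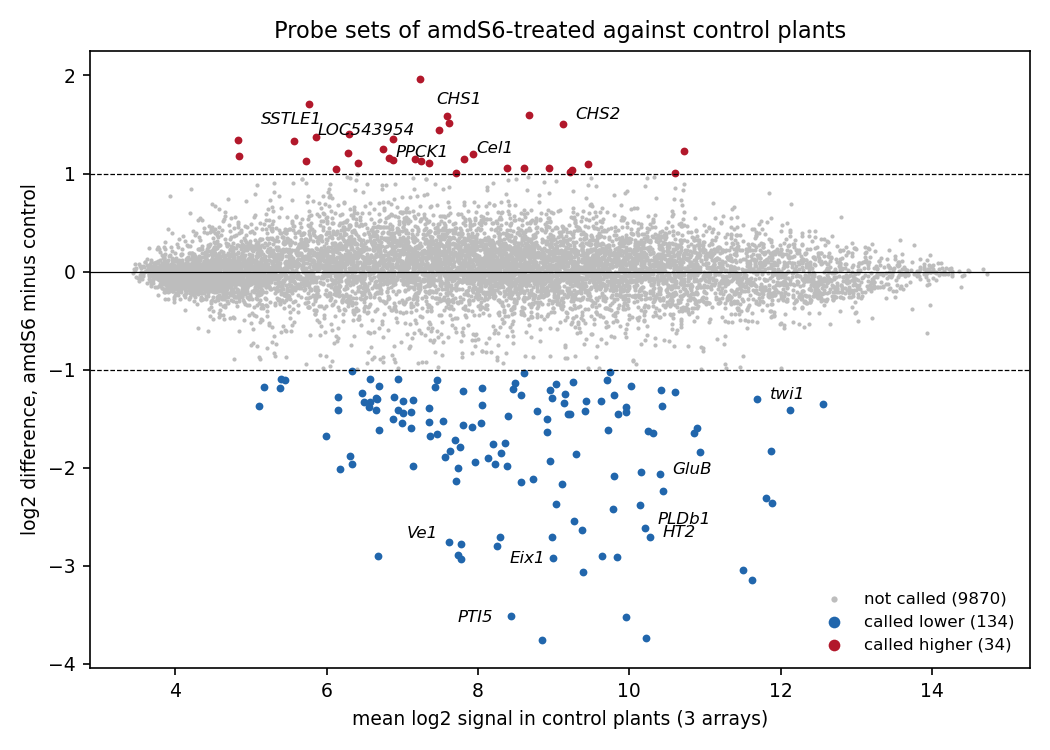
Each point is a probe set, with its mean log2 signal in the 3 control arrays on the x axis and its log2 difference, amdS6 minus control, on the y axis. Dashed lines mark the 2-fold limit. The 134 called lower reach -3.75, whereas the 34 called higher reach 1.97.

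The called transcripts were not confined to dim probe sets. Those called lower had a median log2 signal of 8.42 in control plants and 6.45 with amdS6, that is a median move from percentile 58.2 to percentile 33.9 of the array. Of the 134, 35 had a mean under the 25th percentile (5.55) with amdS6 and 5 had one under the 25th percentile of the control arrays. Those called higher moved from a median of 7.3 to 8.59, or from percentile 43.7 to percentile 60.3. A gene symbol was known for 44 of the 168 (12 higher, 32 lower), 72 are known by a description in the study alone, which chose them on these arrays so that their counts are not independent evidence, and 52 have no name here (17 higher, 35 lower). Some of the 44 were chosen by the study on these arrays as well, among them PTI5, ER24, HT2, Wiv-1, PLDb1, XTH3, tXET-B2, HSP17.4 and PPCK1.

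Transcripts of proteins that perceive fungi were among the deepest falls. Eix1, a receptor-like protein that binds a fungal xylanase, had log2 signals of 8.18, 8.26 and 8.31 in control plants and 5.54, 5.22 and 5.59 with amdS6. Every amdS6 array was thus more than 2 units below every control array, and the fitted change was 6.96-fold (log2 difference -2.80, standard error 0.0882, adjusted p = 3.13e-10). Ve1, a receptor-like protein of Verticillium resistance, went from 7.38, 7.78 and 7.67 to 4.81, 4.87 and 4.89, a 6.75-fold fall. Its near-identical neighbour in the same locus, Ve2, went from 7.49, 7.39 and 7.52 to 6.52, 6.48 and 6.48, a difference of -0.97 that stayed just under the 2-fold limit, and probes for such close copies may share signal. Ve2 passed the limit without control replicate 2 (-1.01). Asc-1, a homolog of ceramide synthases that gives resistance to an Alternaria toxin, fell from 7.18, 7.43 and 7.47 to 5.89, 5.68 and 5.90. So 4 of 4 receptor and resistance probe sets with a symbol were lower at the adjusted p and 3 were called, with a median of -2.14 against 0.0146 over all probe sets. Of all probe sets 20.9% were lower at the adjusted p and 1.33% were called lower. Another 4 probe sets that the study describes as receptors were all called lower (median -1.60, deepest -2.91). The study chose 7 of these 8 on these arrays, which is not independent evidence.

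Transcripts of signal relay were lower in some members. The 5 probe sets described as calcium-binding proteins, which sense calcium, were all called lower with a median of -2.70, but the study chose them on these arrays by the size of their change, so that neither their count nor their size can be set against other lists. In the deepest of them the control arrays read 8.82, 8.88 and 8.83 and the amdS6 arrays 5.08, 5.04 and 5.15. MPK3, a MAP kinase of early defense, fell from 8.62, 8.52 and 8.56 to 7.28, 7.30 and 7.35 (-1.26) and from 8.63, 8.43 and 8.39 to 7.51, 7.25 and 7.28 on a second probe set (-1.14). Another, dimmer probe set for MPK3 gave -0.54. Wfi1, an NADPH oxidase that makes superoxide, went from 9.66, 9.78 and 9.69 to 8.61, 8.63 and 8.58, a 2.15-fold fall. The arrays of both groups were separate for the called probe sets of these transcripts, as for 53.1% of all probe sets. Of 15 probe sets with a symbol for calcium signals, MAP kinases and the oxidative burst, 9 were lower and 4 higher at the adjusted p (median -0.177). Over all probe sets 20.9% were lower and 29% higher. Called lower were 3 of the 15, those of MPK3 and Wfi1, against 1.33% of all probe sets. MKK4, a MAP kinase kinase, was higher by 0.41, while MEK1, another, was lower by 0.47 (log2 difference -0.47). With spike scaling the list's median turned to 0.178, 3 members were lower and 6 higher, and none was called.

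The deepest fall of a transcript with a symbol was that of PTI5, an ERF that binds the resistance kinase Pto. Its control signals were 8.24, 8.53 and 8.56 and its amdS6 signals 4.68, 4.99 and 5.14, an 11.4-fold fall (log2 difference -3.51, 95% confidence interval from -3.79 to -3.22, adjusted p = 1.33e-09). Other ERFs did not share it. PTI6, another Pto interactor, differed by -0.62, ERF3 by -0.40 and ERF4 by 0.58, and of 12 ERF probe sets 6 were lower and 4 higher at the adjusted p (median -0.111, which spike scaling turned to 0.245). ER24, a homolog of the coactivator MBF1, fell from 9.10, 9.01 and 9.00 to 6.59, 6.62 and 6.79. NAC1, a NAC factor, fell from 8.34, 8.38 and 8.34 to 6.68, 6.58 and 6.55, and LOC543855, known as WRKYIId-2, from 7.55, 7.43 and 7.71 to 5.60, 5.60 and 5.82. The WRKY factors WRKYIId-1 and WRKYIId-4 of the same group moved less, by -0.74 and -0.62. Against 20.9% lower and 29% higher over all probe sets, 6 of 9 WRKY and NAC probe sets were lower and 1 higher at the adjusted p. Their median of -0.325 turned to 0.031 with spike scaling, where 4 were lower and 2 higher.

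Of 18 PR probe sets with a symbol, 12 were lower and 2 higher at the adjusted p, 5 were called lower and none higher, and the median was -0.705. Over all probe sets 20.9% were lower and 29% higher, and 1.33% were called lower. The study chose 3 of the 18 on these arrays, which is not independent evidence for those. GluB, a basic glucanase, went from 10.34, 10.43 and 10.44 to 8.28, 8.32 and 8.40, a 4.19-fold fall. The papain-like protease pip1, which acts in the apoplast, went from 9.12, 9.06 and 9.15 to 7.07, 6.93 and 6.83 (-2.17), and PR-5, a thaumatin-like protein, from 8.07, 8.20 and 8.34 to 6.50, 6.31 and 6.53 (-1.76). In all 3 the control arrays were higher without overlap, but the groups do not overlap in 53.1% of all probe sets. P69B, a subtilisin-like protease, read 10.62, 10.60 and 10.57 against 9.40, 9.39 and 9.32, and CHI9, a basic chitinase, 10.01, 10.01 and 10.04 against 8.85, 8.82 and 8.88. Both fell by little more than 2-fold, with a very small spread between pools. A second group of PR transcripts was lower by less than 2-fold, namely P4 of the PR-1 family (-0.99), LOC543878, known as PR5 (-0.93), the osmotin-like NP24-I (-0.90), the chitinase CHI14 (-0.87) and PR1b1 (-0.54). P4 passed the limit without control replicate 1 (-1.04) and without amdS6 replicate 3 (-1.01), and LOC543878 without amdS6 replicate 3 (-1.01). Against this direction, the chitinase CHI17 rose from 7.83, 7.71 and 7.92 to 8.54, 8.47 and 8.58 and TPP3, described as a defensin, from 7.85, 7.90 and 8.10 to 8.63, 8.70 and 8.66, both by 0.71. With spike scaling the median was -0.349, 9 were lower and 6 higher, and 3 were called lower and 2 higher, since CHI9 (-0.81) and P69B (-0.87) lost their calls and CHI17 and TPP3 (1.07 each) gained one. Beside these, 2 probe sets described as acidic endochitinases fell from 10.09, 10.19 and 10.20 to 8.09, 8.14 and 8.12 and from 8.32, 8.25 and 8.10 to 6.33, 6.44 and 6.03.

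**Figure D2:**
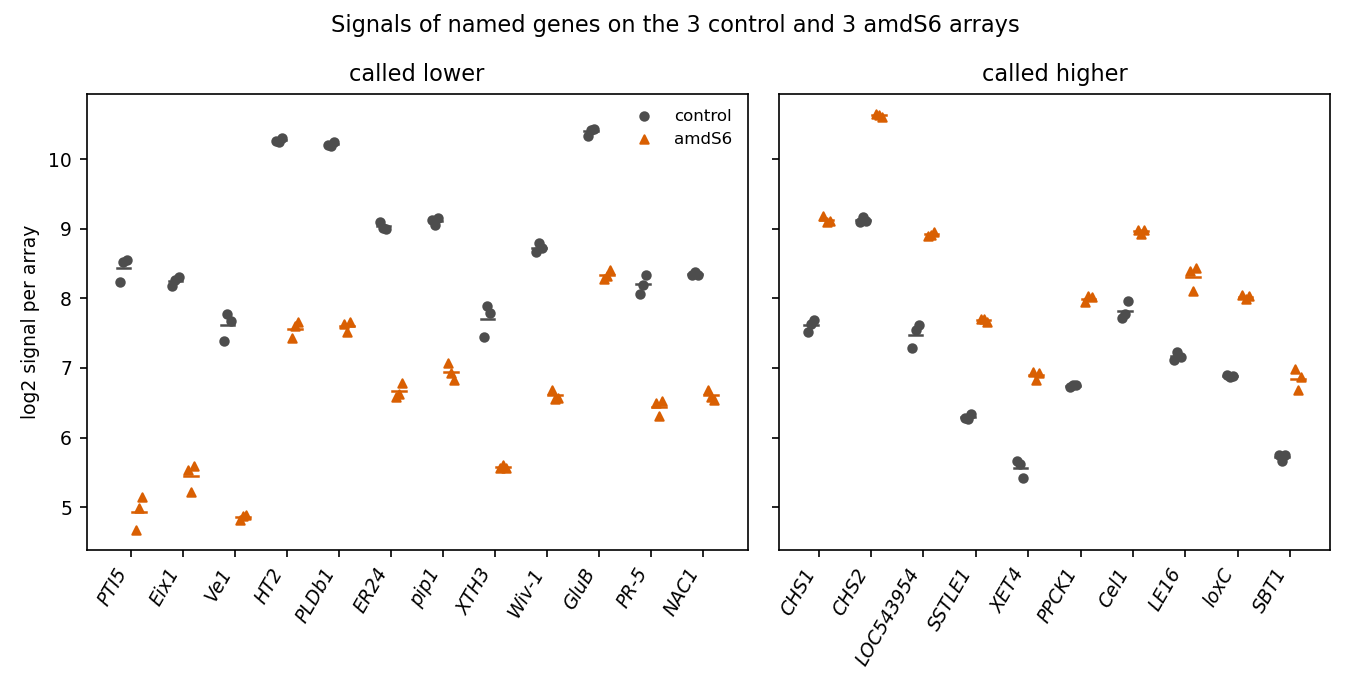
Log2 signal on each array (y axis) for 12 genes called lower and 10 called higher (x axis), with control arrays as circles, amdS6 arrays as triangles and short lines for the means of 3 arrays. In each of the 22 genes the 3 amdS6 arrays lie clear of the 3 control arrays, as in 53.1% of all probe sets. The gaps on the left, up to -3.51 for PTI5, exceed those on the right, up to 1.52 for CHS1.

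Some detoxification transcripts were lower. The 5 probe sets described as cytochrome P450s or glutathione S-transferases, which oxidize and conjugate foreign compounds, were all called lower (median -2.92), which their choice by the study on these arrays fixed. Among them were a P450 that went from 9.91, 9.87 and 10.10 to 6.41, 6.42 and 6.49 and a transferase that went from 11.39, 11.49 and 11.61 to 8.45, 8.46 and 8.47. By symbol, the glutathione S-transferases ctu1 (-1.42) and GST-T4 (-1.28) were called lower, the latter not with spike scaling (-0.93), and the remaining member of this list of 3, too short to describe the group, lay at 0.0376. The homologs of tobacco proteins induced during the hypersensitive response or by elicitors, HSR203J and NtEIG-E80, fell by 3.14 and 3.73 on the log2 scale. NtEIG-E80 went from 10.26, 10.17 and 10.23 to 6.52, 6.48 and 6.47. The glucosyltransferase twi1, which is inducible by wounding, fell from 11.79, 11.71 and 11.57 to 10.35, 10.40 and 10.42, and its call was lost with spike scaling (-0.94). HSP17.4, a small heat shock protein, read 8.92, 8.95 and 9.00 against 6.89, 7.13 and 7.06. Of 8 heat shock probe sets with a symbol 5 were lower and 1 higher, against 20.9% and 29% over all probe sets. The list's median of -0.242 turned to 0.114 with spike scaling. AOX1a, the alternative oxidase of mitochondria, was lower by less than 2-fold (10.90, 10.95 and 10.99 against 10.17, 10.18 and 10.19). Of 21 antioxidant enzyme probe sets with a symbol 6 were higher, 7 lower and none called (median -0.0253, or 0.33 with spike scaling).

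Of 24 sugar probe sets with a symbol 2 were called lower, and of 9 lipid probe sets 1 was called lower and 1 higher. Over all probe sets 1.33% were called lower and 0.339% higher. All 9 lipid probe sets with a symbol passed the adjusted p, 6 higher and 3 lower. With spike scaling 6 were higher and 1 lower, and with the 3' excess as a covariate 2 were higher and 2 lower. HT2, a hexose transporter, had control signals of 10.27, 10.24 and 10.31 and amdS6 signals of 7.43, 7.61 and 7.66, a 6.54-fold fall. Wiv-1, a wound-inducible invertase of the cell wall that supplies hexoses, fell 4.34-fold from 8.66, 8.79 and 8.72 to 6.68, 6.56 and 6.58. Both genes were above the array median in control plants, and the groups did not overlap, as in 53.1% of all probe sets. Sucrose synthase sus3 differed by -0.86 and AgpL1, a subunit of ADP-glucose pyrophosphorylase of starch synthesis, by 0.56. Over 24 probe sets of sugar metabolism and transport 6 were higher, 5 lower and 13 did not pass. These counts are near the 29% higher and 20.9% lower over all probe sets. The list's median was -0.0144, or 0.341 with spike scaling. PLDb1, a phospholipase D, fell 6.12-fold from 10.21, 10.19 and 10.24 to 7.64, 7.51 and 7.66, and its relative PLDa2 differed by -0.49. In the opposite direction LE16, a lipid transfer protein, rose from 7.11, 7.23 and 7.16 to 8.40, 8.10 and 8.44, and TSW12, another, by 0.54. An acyl-CoA synthetase (-2.90) and 2 ketoacyl-CoA thiolases of fatty acid breakdown (-1.34 and -1.31), known by description, were called lower, the thiolases not with spike scaling.

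Enzymes that cut and rejoin xyloglucan, the hemicellulose that tethers cellulose fibres, were split. XTH3 fell from 7.44, 7.89 and 7.79 to 5.56, 5.60 and 5.56 and tXET-B2 from 7.47, 7.73 and 7.71 to 5.71, 5.91 and 5.81. XET4 rose from 5.66, 5.63 and 5.41 to 6.94, 6.83 and 6.92, a 2.51-fold change. XTH16, which is bright, was higher by less than 2-fold on both of its probe sets (0.73 and 0.50). At the adjusted p 9 of the 12 probe sets rose and 3 fell, also with spike scaling, and the median was 0.258. Cel1, an endoglucanase that loosens walls, rose 2.21-fold from 7.71, 7.77 and 7.97 to 8.99, 8.92 and 8.98. Among 24 probe sets of cellulases, pectin enzymes and galactosidases 11 were higher and 2 lower, the galactosidases TBG6 (0.51) and TBG4 (0.49) next to Cel1, and among 13 expansins 5 were higher, 1 lower and 7 did not pass. Over all probe sets 29% were higher and 20.9% lower.

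The strongest rises with a symbol were those of CHS1 and CHS2, chalcone synthases that take the committed step into flavonoids. CHS1 went from 7.51, 7.64 and 7.69 to 9.18, 9.10 and 9.11 and CHS2 from 9.09, 9.17 and 9.11 to 10.65, 10.64 and 10.61. The amdS6 arrays of both lay more than 1 unit above the highest control array (log2 differences 1.52 and 1.51, adjusted p = 1.62e-08 and 6.96e-10). DFR, a dihydroflavonol reductase several steps further down towards anthocyanins, was dim and lower, from 5.83, 5.89 and 5.91 to 5.37, 5.41 and 5.38. In the neighbouring phenolic branch a tyramine hydroxycinnamoyl transferase, which makes phenolic amides for the wall, fell by 1.85 on the log2 scale. Its relative THT1-3 fell by little more than 2-fold, from 6.38, 6.55 and 6.07 to 5.27, 5.18 and 5.49. The call of THT1-3 was lost without control replicate 1 (-0.99), without control replicate 2 (-0.91), without amdS6 replicate 1 (-0.99) and without amdS6 replicate 2 (-0.95), with spike scaling (-0.66) and with the 3' excess as a covariate (-0.61). Of 9 flavonoid and phenolic probe sets with a symbol, 4 were higher and 4 lower, where 29% of all probe sets were higher and 20.9% lower.

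The lists of oxylipin genes (14 probe sets) and of wound and anti-insect genes (13) held 1 call each, both higher. Over all probe sets 0.339% were called higher and 1.33% lower. The wound-inducible Wiv-1 and twi1, outside these lists, were called lower. loxC, a chloroplast lipoxygenase for volatile aldehydes, rose from 6.90, 6.87 and 6.88 to 8.05, 7.99 and 8.03. AOC, an allene oxide cyclase of jasmonate synthesis, rose by 0.66 and HPL, the hydroperoxide lyase that follows loxC, by 0.55, both under 2-fold. Of 14 probe sets of lipoxygenases and jasmonate synthesis 6 were higher and 2 lower (median 0.115), where 29% of all probe sets were higher and 20.9% lower. LOC543954, known as PIIF, a proteinase inhibitor made after wounding, went from 7.29, 7.54 and 7.61 to 8.89, 8.91 and 8.95, a 2.71-fold rise. ARG2, a wound-induced arginase, rose by 0.84 on both of its brighter probe sets, and LAPA1, a leucine aminopeptidase, by 0.42. Of 13 wound and anti-insect probe sets 5 were higher and none lower (5 and 0 at an unadjusted limma p under 0.05). Over all probe sets 29% were higher and 20.9% lower. The list's median was 0.0189, or -0.00737 with centring of the arrays. With spike scaling all 13 were higher, 3 were called and the median was 0.374. With the 3' excess as a covariate 3 were higher and 2 called. A cathepsin D inhibitor read 9.15, 9.32 and 9.19 against 10.35, 10.21 and 10.14, just inside the limit. It was outside without control replicate 1 (0.98), without amdS6 replicate 1 (0.96), with array weights (0.916), centring (0.989) or quantile normalization (0.991) and with the 3' excess as a covariate (0.808). SBT1, a subtilase, rose from 5.75, 5.66 and 5.75 to 6.99, 6.68 and 6.87.

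Terpene synthesis held 2 called rises. SSTLE1, a sesquiterpene synthase, went from 6.28, 6.26 and 6.34 to 7.70, 7.71 and 7.66 and neryl diphosphate synthase, which makes a monoterpene precursor, from 5.63, 6.00 and 5.67 to 7.37, 7.53 and 7.54. Both are active in glandular trichomes. The summed linear level of 7 trichome marker probe sets, which include these 2, was 220 to 236 in control plants and 464 to 494 with amdS6. The other 5, for the monoterpene synthase MTS1 and a polyphenol oxidase, stayed between 3.69 and 4.81 log2 units in both groups, near the lower end of the array, and none passed the adjusted p. In pooled shoots, more cells of a type and more transcript per cell cannot be told apart. Over 25 terpene and carotenoid probe sets with a symbol, 10 were higher and 5 lower, against 29% and 20.9% over all probe sets. Of the 25, 1 was called higher, against 0.339% of all probe sets.

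Probe sets of PEPC, its kinase and nitrate reductase rose. The 2 probe sets described as PEPC, the phosphoenolpyruvate carboxylase named above, went from 7.14, 7.26 and 7.32 to 8.24, 8.46 and 8.40 and from 8.90, 8.96 and 8.96 to 9.91, 10.06 and 10.02. The call of the second was lost with the 3' excess as a covariate (0.984). PPCK1, a kinase that activates PEPC (the study lists this probe set as PEPCK), rose from 6.72, 6.75 and 6.76 to 7.94, 8.04 and 8.02, and PPCK2, its relative, by 0.83 (from 6.18, 6.38 and 6.59 to 7.23, 7.19 and 7.23). All control arrays were below all amdS6 arrays, and the groups lay apart in either direction for 53.1% of all probe sets. ME2, a malic enzyme, was lower by 0.51 (log2 difference -0.51), and of 10 probe sets of phosphoenolpyruvate and malate metabolism with a symbol 5 were higher and 3 lower. Nitrate reductase rose from 10.67, 10.62 and 10.51 to 11.67, 11.58 and 11.59, a 2.01-fold change that was under the limit without control replicate 3 (0.96) and without amdS6 replicate 1 (0.98), and also with centring (0.981), a further quantile normalization (0.998) and array weights (0.98). Of the 7 nitrogen probe sets with a symbol 1 was higher and 2 lower, and their range was -0.30 to 0.26. A non-symbiotic haemoglobin, which the study files under nitrogen assimilation, was higher by 0.94, just under the limit. Over all probe sets 29% were higher and 20.9% lower. The PEPC probe sets, PPCK1, nitrate reductase and the haemoglobin are among those the study chose on these arrays.

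Hormone, growth and housekeeping lists by symbol held at most 1 call each, where 1.33% of all probe sets were called lower and 0.339% higher. Their counts at the adjusted p stand beside 29% higher and 20.9% lower over all probe sets. Among 15 probe sets of ethylene synthesis 4 were higher and 4 lower and none was called, ACS1A, an ACC synthase, being lowest (-0.93) and ACO6, an ACC oxidase, highest (0.53). A probe set described as an ACC oxidase fell from 11.83, 11.85 and 11.76 to 9.49, 9.48 and 9.54. The study chose it on these arrays by the size of its change, so that its fall cannot be set against this list. Among 17 of ethylene receptors and signalling 7 were higher and 2 lower (median -0.00111, or 0.354 with spike scaling). Of 25 auxin, gibberellin and brassinosteroid probe sets 13 were higher and 3 lower, with IAA7 (0.50) and IAA17 (0.43) above control, whereas LOC543701, described as an auxin response protein, was called lower (7.99, 8.01 and 8.15 against 6.50, 6.74 and 6.82). Cell division genes were higher in 7 of 15 and lower in none (7 and 0 at an unadjusted p under 0.05). The largest rise was 0.68, for the mitotic kinase CDKB2, and CycA1, a cyclin, was higher by 0.53. When the arrays were centred or normalized again 1 of the 15 was lower. With spike scaling all 15 were higher and 1 was called. Photosynthesis genes held a range of -0.0815 to 0.0335 over 9 probe sets.

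**Figure D3:**
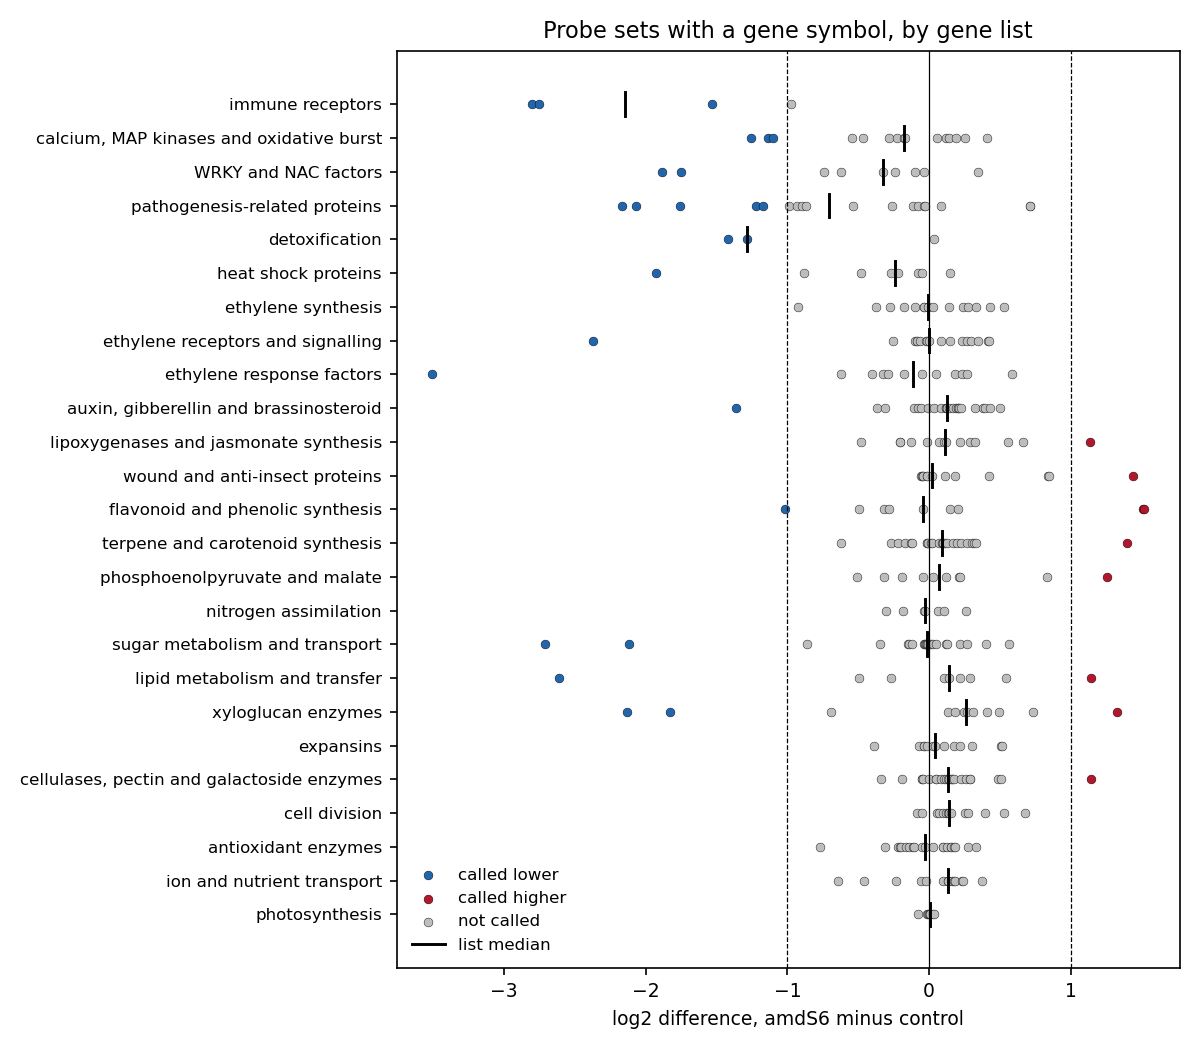
Log2 difference, amdS6 minus control (x axis), of every probe set with a gene symbol in 25 gene lists (y axis), with calls coloured, black bars for list medians and dashed lines at 2-fold. The medians of the immune receptor list (-2.14, with the resistance gene Asc-1 in it), of the 3 detoxification probe sets (-1.28) and of the PR list (-0.705) lie furthest left. With spike scaling the medians of the calcium and MAP kinase, WRKY and NAC, heat shock and ERF lists turn positive, as do those of all lists shown left of 0 except the PR, immune receptor and detoxification lists, and centring turns that of the wound list negative.

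Near the limit the order of genes is not secure. Just inside it were ODD (-1.03), which read 9.71, 9.78 and 9.73 against 8.71, 8.71 and 8.72, an endo-β-N-acetylglucosaminidase (-1.03), THT1-3 (-1.01), ARPI (1.01) and the nitrate reductase and cathepsin D inhibitor given above. The endo-β-N-acetylglucosaminidase was outside it without control replicate 3 (-0.997) and without amdS6 replicate 1 (-0.994), and ARPI without control replicate 1 (0.95) and without amdS6 replicate 1 (0.99) and with centring, quantile normalization or array weights (0.92 to 0.98). With spike scaling ODD (-0.67) and the endo-β-N-acetylglucosaminidase (-0.67) were outside too. Just outside were P4 (-0.99), LOC543758 (-0.98), Ve2 (-0.97), LOC544276, known as ICL (0.96), and a non-symbiotic haemoglobin (0.94). LOC543758 reached the limit without control replicate 3 and with centring or array weights. LOC544276 passed it without amdS6 replicate 1 (1.01), with array weights (1.01), the 3' excess as a covariate (1.08) and spike scaling (1.32). Quantile normalization and the covariate took P4 (-1.01 and -1.15) and Ve2 (-1.02 and -1.1) past it. P4 also reached it with centring or array weights, and the haemoglobin passed it with spike scaling (1.3). Among all 168, 157 were called whichever array of the comparison was left out, 128 of them lower and 29 higher.

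The response to amdS6 was then set directly against that to amdS122, which holds a further copy of the cassette and is another clone. Between these groups 66 probe sets were higher with amdS6 (0.658%) and 6 lower (0.0598%), and the control arrays do not enter, although the amdS6 arrays that chose the probe sets below do. With spike scaling these were 192 and 1. Of the 34 probe sets higher than control with amdS6, 12 were called higher than with amdS122 as well, and at the adjusted p 25 were further from control than with amdS122, 6 nearer and 3 not separated. CHS2 illustrates the first kind: its mean was 9.12 in control plants, 9.07 with T34, 9.37 with amdS122 and 10.6 with amdS6, and the transformants differed by 1.27 (standard error 0.0523, adjusted p = 1.09e-08). LOC543954 had means of 7.48, 7.98, 7.14 and 8.92 in the same order, a difference of 1.78 between the transformants. PPCK1 illustrates the second kind, with 6.75 in control plants, 5.40 with T34, 8.85 with amdS122 and 7.99 with amdS6, as do both PEPC probe sets, which lay below amdS122 by 0.92 and 0.82 (log2 differences -0.92 and -0.82), and Cel1 (-0.36). LE16 and the cathepsin D inhibitor did not pass (differences of 0.05 and 0.02).

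Among the 134 probe sets lower than control with amdS6, the difference from amdS122 was called for 5, and at the adjusted p 60 were nearer to control than with amdS122, 18 further from it, and 56 not separated. GluB is the 1 called as deeper, with means of 10.4 in control plants, 10.8 with T34, 10.0 with amdS122 and 8.33 with amdS6. CHI9 and P69B differed in the same direction by less than 2-fold (-0.84 and -0.77). NAC1 (1.03), LOC543701 (1.51) and a miraculin homolog (1.13) were lower with amdS122. Eix1 was at 5.45 with amdS6 and 5.15 with amdS122 and Ve1 at 4.86 and 5.00. PTI5 (-0.06), HT2 (-0.06) and Ve1 (-0.15) did not pass the test of this difference, with standard errors of 0.129, 0.0803 and 0.0874.

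Against T34, 160 probe sets were lower with amdS6 (1.59%) and 31 higher (0.309%), or 114 and 84 with spike scaling. Over the 134 probe sets lower than control the median difference from T34 was -1.63, and that between T34 and control 0.0106. The comparisons share the amdS6 arrays that chose these probe sets. Over the 34 higher than control the median difference from T34 was 0.82, and that between T34 and control 0.395. Called higher than T34 were 14 of the 34, among them CHS1 (1.71), CHS2 (1.56), PPCK1 (2.60), Cel1 (1.27) and SBT1 (1.12). Others were higher with T34 too, as loxC was at 6.88 in control plants, 7.76 with T34 and 8.03 with amdS6, and the cathepsin D inhibitor at 10.2 with both fungi, a difference of 0.01. SSTLE1 (6.29, 6.95 and 7.69) and XET4 (5.57, 6.16 and 6.90) took an intermediate place with T34, 0.74 and 0.73 below amdS6.

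**Figure D4:**
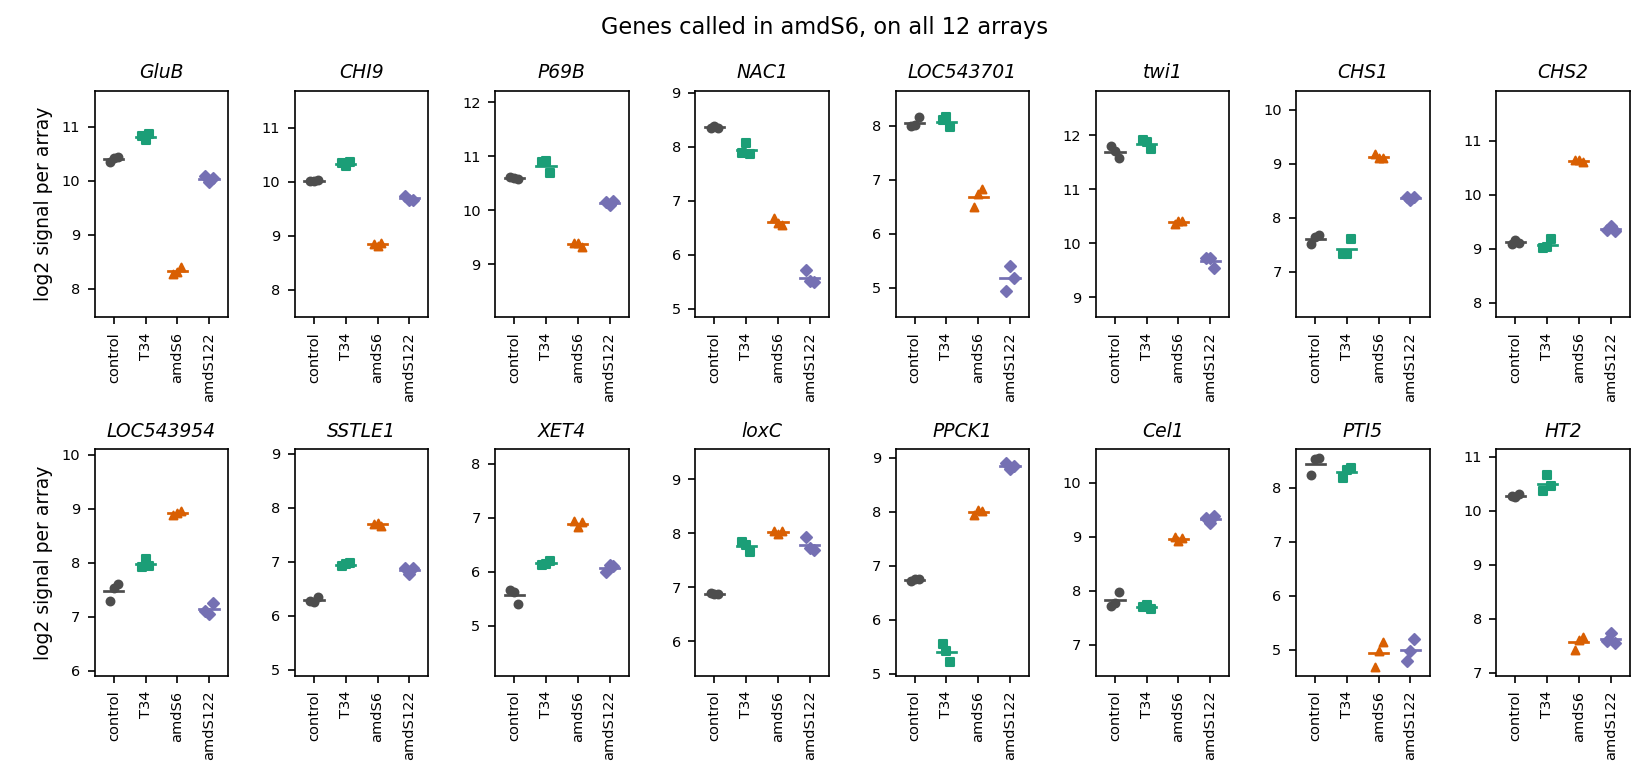
Log2 signal on each of the 12 arrays (y axis, all panels spanning the same number of log2 units) for 16 genes called with amdS6, by group (x axis), with short lines for the means of 3 arrays. GluB and CHI9 are lowest and CHS1, CHS2, LOC543954, SSTLE1 and XET4 highest with amdS6, NAC1, LOC543701 and twi1 are lowest with amdS122, and PTI5 and HT2 lie side by side in both transformants.

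Among the 52 called probe sets with no name here is the strongest rise of all, chosen after its values were seen. It read 7.22, 7.21 and 7.25 in control plants and 9.15, 9.21 and 9.22 with amdS6, a 3.91-fold change (adjusted p = 3.77e-11), and its mean was 7.03 with amdS122 and 7.52 with T34. The 3 rises past 3-fold other than this are neryl diphosphate synthase and 2 more nameless probe sets (1.59 each), both called higher than with amdS122 by 1.16 and 2.02. At the other end of reliability, 4 nameless probe sets called lower had standard errors of 0.384 to 0.528, and the noisiest, with control signals of 13.06, 12.88 and 11.75 against 10.90, 11.70 and 11.03, passed with an adjusted p of 0.0576.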

How the data were processed

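RNA of aerial parts was hybridised to the Affymetrix Tomato Genome Array. The authors deposited log2 values, computed from the scans by RMA (background correction, quantile normalization and probe summary) in Affymetrix Expression Console, whose versions are not given in the sources used here. They were used as deposited, which leaves a global change in mRNA invisible. A limma model (version 3.58.1, R 4.3.3) of all 12 arrays held a mean for each group (8 residual and 3.69 prior degrees of freedom), with Benjamini-Hochberg adjustment over 10038 probe sets. The multi-class SAM of the methods gives no test of a pair of groups and was not rerun. The 108 control features served for quality and for spike scaling, and 63 reporter features were left out. No probe set has several symbols, 909 have 1 (885 matched by gene identifier) and 9129 have none; descriptions come from the study's tables.

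Lists and named genes were chosen with earlier results of these data known. Named are the called probe sets with a name and the largest changes, called list members, up to 6 further members per list, genes the study tested by real-time PCR or names, those that differ most from amdS122 and T34, and those next to the 2-fold limit; lists by symbol were completed by hand after values were seen, and nameless probe sets were chosen so too. The fit was tested on simulated data. Alternatives are given in the closing section. Array number limits the precision.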

Additional observations from a re-analysis of the deposited data

Results flagged for a closer look

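Where the effect of amdS6 on a transcript differed from that of another strain by a test of the difference itself (limma, adjusted p under 0.1 and at least 2-fold), the result is listed here. The difference was called for 72 probe sets between amdS6 and amdS122, and for 55 of them the strains lay on opposite sides of control, each past the adjusted p. Higher with amdS6 than with amdS122 were PDH (1.83 on the log2 scale), LOC543954 (1.78), LOC544001 (1.57), the mitotic kinase CDKB2 (1.53), TKR (1.51), the cyclin CycA1 (1.37), the arginase ARG2 (1.31 and 1.07 on its probe sets), LOC543971 (1.27), DEM (1.1), LAPA1 (1.03) and LOC543730 (1.02). Lower with amdS6 were DFR (-1.28), P4 of the PR-1 family (-1.19) and PR-P2 of the PR-4 family (-1.1), and with spike scaling these 3 were no longer called (-0.952, -0.857 and -0.773). CDKB2 is an example of the first kind, with means of 8.22 in control plants, 8.89 with amdS6 and 7.36 with amdS122, and P4 an example of the reverse, with 9.60, 8.61 and 9.80.

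Between amdS6 and T34 the difference was called for 191 probe sets, 65 of which lay on opposite sides of control. Listed are those with a name that were also called between amdS6 and control, so that the same amdS6 arrays chose them. Lower with amdS6 and higher with T34 were the calcium-binding protein with the deepest fall (-4.01), a prephenate dehydrogenase (-3.13), GluB (-2.48), the ACC oxidase known by description (-2.45), the acidic endochitinases (-2.44 and -2.38), Wiv-1 (-2.35), a benzyl alcohol benzoyl transferase (-2.16), a short chain dehydrogenase/reductase (-2.16), a glutathione S-transferase (-2.01), LOC543602 (-1.97), THT1-3 (-1.66), CHI9 (-1.49), P69B (-1.46), an endo-β-N-acetylglucosaminidase (-1.19) and ODD (-1.17). Higher with amdS6 and lower with T34 were PPCK1 (2.60), the PEPC probe sets (1.96 and 1.84) and nitrate reductase (1.35). Groups of 3 arrays were too small for a test of single outlying arrays.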

How the results depend on the processing

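The count of 168 called probe sets lay between 165 and 176 when each array was left out in turn and between 142 and 187 with the groups alone, a moderated F test, centring, a further quantile normalization, removal of dim probe sets (7026 left), a variance trend, array weights, an adjusted p under 0.05 or a covariate for the 3' excess. It was 524 at a 1.5-fold and 71 at a 3-fold limit. The counts against amdS122 (72) and T34 (191) were 320 and 490 at 1.5-fold and 11 and 83 at 3-fold. Scaling on the spikes gave 257 calls against control and 193 against amdS122, and its effect on direction is given in the report. Past the adjusted p, 5012 became 2399 with the covariate, which shares its direction with the groups. Deviations of same-numbered arrays from their group means correlated over 0.1 in 10 of 18 pairs of the 4 groups (r of -0.0466 to 0.549; control with amdS6, 0.0129 to 0.229). The labels tie the numbers to no shared batch, and since not every pair was over 0.1 the numbers were not used as a pairing in the reported fit. With the replicate block the same 168 were called (72 and 191 for the other comparisons), and the block changed no call of a named gene. Of 109 genes and probe sets followed, 83 kept direction and call with spike scaling, 10 lost and 13 gained a call and 3 that were not called turned direction, namely PR-P2 (0.0943), RNALE (0.302) and TD2 (0.305). TD2 also turned with the covariate (0.184), and RNALE without control replicate 3 (0.0156, lowest -0.12 without control replicate 1). The cause was not tested.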
